A study of Arabidopsis thaliana with 9 samples.

Results

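These 765 RNAs are the AGO4-bound transcripts of the *Arabidopsis* chromosome arms that overlap no listed Pol V transcript and still gave at least 1 read in the *ago4* mutant. AGO4 is an Argonaute protein of RNA-directed DNA methylation. In this pathway small interfering RNAs guide AGO4 to RNA made at the same locus by the plant-specific polymerase Pol V, and DNA methylation is set there. In RNA immunoprecipitation with sequencing (RIP-seq), a mutant in the gene of the precipitated protein serves as the background.

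The AGO4 RIP-seq compared *ago4* plants with Col-0 wild type by immunoprecipitating nuclear RNA with an anti-AGO4 antibody. The *ago4* plants carried the *ago4-1* allele, brought into the Col-0 background by introgression, and the labels name no other difference between the genotypes. Aerial parts of soil-grown seedlings about 2.5 weeks old, fixed with 0.5% formaldehyde, were used for both. There was 1 library per genotype, so no difference below has a replicate check, no p-value can be given, and differences between plants and between libraries cannot be told apart. An *nrpe1* library of the same assay was not analysed here.

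Members were chosen by 4 criteria applied to the list of 3940 AGO4-bound transcripts. A member overlapped no listed AGO4-bound transcript of the other strand by 1 bp or more. It overlapped none of the 4502 listed Pol V transcripts on either strand. Its start lay outside the pericentromeric intervals, which run from 11.5 to 18 Mb on chromosome 1, 1 to 7.3 Mb on chromosome 2, 10.5 to 17.3 Mb on chromosome 3, 1.5 to 6.4 Mb on chromosome 4 and 9 to 15.6 Mb on chromosome 5. It had at least 1 read in *ago4*. The last criterion is a measured value, so the *ago4* reads of the members describe the selection and are no finding. Of the 1832 transcripts that met the first 3 criteria, 765 (41.8%) met the last, against 1077 of all 3940 (27.3%), and 1067 had no *ago4* read. Just inside this limit, the 200 members with a single *ago4* read had a median of 20.5 Col-0 reads (8 to 126), and just outside it the 1067 transcripts without one had a median of 13 (5 to 74). AGO4_Trans2839 had the most Col-0 reads of those 1067, 74. Across the border of the intervals, the nearest member was AGO4_Trans1998 on chromosome 3, 5.62 kb outside, with 38 *ago4* and 233 Col-0 reads, and the nearest pericentromeric transcript with an *ago4* read was AGO4_Trans2479 on chromosome 4, 61.9 kb inside, with 3 and 30.

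On all listed transcripts the *ago4* library had 6245 reads and the Col-0 library 118313. These totals cover the list and not the libraries, whose full depth is unknown here, so reads are compared as deposited, as if the libraries were equally deep. The list was filtered by the authors to transcripts with at least 6 times as many reads in Col-0 as in *ago4*, which caps *ago4* reads at 16.7% of Col-0 reads, so a lower value in *ago4* is built into every row. The *AGO4* gene itself overlapped 0 listed transcripts, so it could not serve to check the genotype labels, and a list called from reads outside genes holds no levels of marker genes for a check of the tissue. The reads carry no molecular identifiers, and the 95% exact (Clopper-Pearson) intervals given below cover counting error only.

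A few members are shown as sequence, because they hold or lie in non-coding RNA genes or begin beside a gene's end. The sequences are those of the TAIR10.1 genome of RefSeq, read 5′ to 3′ on the transcript's strand. Capitals mark letters of the 6 motifs searched below, on either strand, and a sequence without capitals holds none of them. The first is the snoRNA gene AT1G09027 (AtsnoR102 in the annotation) on the minus strand of chr1:25926968-25927100, which lies within the member with the most reads, AGO4_Trans814. The next 2 are whole members that lie inside genes annotated only as miscellaneous RNA, AGO4_Trans3801 on the plus strand of chr5:22455106-22455256 in AT5G00660 and AGO4_Trans3671 on the minus strand of chr5:18701868-18702020 in AT5G00590.
AT1G09027: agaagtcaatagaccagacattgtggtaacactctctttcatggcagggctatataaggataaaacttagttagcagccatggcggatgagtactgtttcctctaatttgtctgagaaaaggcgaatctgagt
AGO4_Trans3801: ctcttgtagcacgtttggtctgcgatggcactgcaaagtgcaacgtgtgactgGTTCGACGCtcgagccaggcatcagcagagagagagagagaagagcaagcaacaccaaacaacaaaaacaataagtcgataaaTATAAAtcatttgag
AGO4_Trans3671: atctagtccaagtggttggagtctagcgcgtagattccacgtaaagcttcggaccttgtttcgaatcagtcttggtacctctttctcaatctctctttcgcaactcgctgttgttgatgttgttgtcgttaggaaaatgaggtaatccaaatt

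The following lines give the first 60 bases of 3 members that begin 1 to 3 bp after the annotated 3′ end of a gene on their own strand, which falls in the commonest 50 bp bin of positions described below. AGO4_Trans3930 follows MYBR1 (plus strand, chr5:26856009-26856068), AGO4_Trans2661 follows GPX6 (minus strand, chr4:7009708-7009767) and AGO4_Trans890 follows AT1G74450 (plus strand, chr1:27984281-27984340).
AGO4_Trans3930: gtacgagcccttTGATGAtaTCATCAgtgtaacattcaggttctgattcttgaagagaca
AGO4_Trans2661: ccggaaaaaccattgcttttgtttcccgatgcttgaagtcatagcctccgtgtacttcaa
AGO4_Trans890: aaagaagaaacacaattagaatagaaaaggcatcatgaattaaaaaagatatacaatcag

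To see how strongly these RNAs were recovered, the reads of both libraries were set side by side. The 765 members held 4996 reads in *ago4* and 51094 in Col-0, so *ago4* reads amounted to 9.78% of Col-0 reads (95% interval 9.50 to 10.1%). They made up 19.4% of the AGO4-bound transcripts and held 80.0% of all *ago4* reads and 43.2% of all Col-0 reads on the list. These shares of reads describe the selection, which left the 1067 other arm transcripts with 0 *ago4* reads. Under the 6-fold filter, *ago4* reads also required Col-0 reads. The median member had 3 reads in *ago4* (1 to 419) and 34 in Col-0 (8 to 4227), and the median of the ratios was 8.70% (0.794 to 16.5%). Most members were thus seen in *ago4* by very few reads. A single *ago4* read was counted for 200, 2 reads for 166 and 3 reads for 100, so 466 members (60.9%) had 3 or fewer. The other 299 (39.1%) had more than 3. Of all 3940 AGO4-bound transcripts 390 (9.9%) had more than 3, but only 1077 of them had any *ago4* read. That contrast therefore follows from the selection. Only 96 members (12.5%) had 10 or more. In these the median ratio was 12.9%, nearer to the limit of the filter, and in those with 1 to 3 *ago4* reads it was 6.67%. The ratio lay over 15% in 54 members and under 3% in 37. Counted on deduplicated reads, *ago4* had 2623 and Col-0 24548 reads on the members, a ratio of 10.7% (10.3 to 11.1%). Duplicates made up 47.5% of the *ago4* reads and 52.0% of the Col-0 reads of the members.

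**Figure D1:**
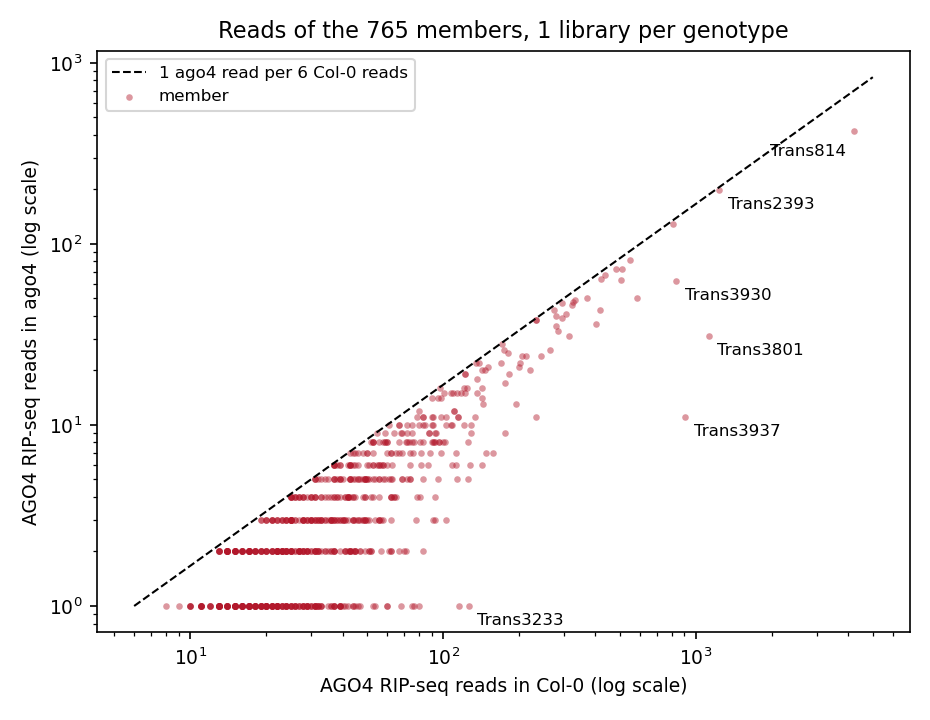
AGO4 RIP-seq reads of each of the 765 members in *ago4* (vertical, log scale) and Col-0 (horizontal, log scale), with 1 library per genotype; the dashed line is the authors' limit of 1 *ago4* read per 6 Col-0 reads. All points lie under the line because of that filter, most with 1 to 3 *ago4* reads, and AGO4_Trans3801 and AGO4_Trans3937 sit far below it for their Col-0 reads.

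The members with the most *ago4* reads lay at a snoRNA gene, at pseudogenes and over or beside protein-coding genes. AGO4_Trans814 (chr1:25926951-25927326, minus strand) had 419 reads in *ago4* and 4227 in Col-0, a ratio of 9.91% (8.94 to 11.0%). It alone held 8.39% of the members' *ago4* reads, and without it the ratio over the other members was 9.77%. It spans the snoRNA gene whose sequence is given above. Small nucleolar RNAs guide the chemical modification of ribosomal RNA and are made in the nucleus. The same 376 bases lie opposite AT1G68945, a protein-coding gene of the other strand. After removal of duplicates, it kept 146 reads in *ago4* and 1005 in Col-0.

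AGO4_Trans2393 (chr3:22514037-22519164, plus strand) had 199 reads in *ago4* and 1235 in Col-0, 16.1% (13.8 to 18.7%). It covers 2835 bp of the pseudogene AT3G60930 on its own strand and 2015 bp of the pseudogene AT3G60935 on the other. AGO4_Trans1275 (chr2:7753016-7755604, minus strand) had 128 reads in *ago4* and 808 in Col-0, 15.8% (13.0 to 19.1%). It starts 1 bp after ERD7, a gene named for its early response to dehydration, and runs opposite AT2G17830 for 1557 bp. AGO4_Trans1687 (chr3:1257786-1260905, minus strand) repeats this arrangement, beginning 1 bp after AT3G04640, a gene for a glycine-rich protein, and running opposite WDL1, which encodes a microtubule-associated protein, for 2353 bp. It had 64 reads in *ago4* and 422 in Col-0, 15.2% (11.5 to 19.8%).

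AGO4_Trans1610 (chr2:18255066-18258588, plus strand) had 63 reads in *ago4* and 507 in Col-0, 12.4% (9.41 to 16.2%). It starts 12 bp after the kelch-repeat gene AT2G44130, lies opposite AT2G44140 for 3228 bp, and shares its last 20 bp with ASHH3, a gene for a SET-domain histone methyltransferase. AGO4_Trans3930 fills the space between MYBR1, a MYB transcription factor gene, and HOS15, a WD-40 repeat protein gene, exactly. It starts 3 bp after MYBR1, ends 1 bp before HOS15, and lies opposite the cytochrome P450 gene CYP81G1 for 1078 of its bases. With 62 reads in *ago4* and 836 in Col-0, its ratio of 7.42% (5.63 to 9.61%) was the lowest of the 10 members with the most *ago4* reads.

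The other 4 of these 10 were AGO4_Trans3795, AGO4_Trans715, AGO4_Trans3251 and AGO4_Trans3250, with 81, 73, 73 and 67 reads in *ago4*, against 550, 510, 482 and 438 in Col-0. AGO4_Trans3795 overlaps the neighbouring genes AT5G54720 and AT5G54710 on its own strand. AGO4_Trans715 begins in the last 8 bp of PUB19, a U-box ubiquitin ligase gene, and runs opposite AT1G60200 for 4707 bp. AGO4_Trans3251 bridges the space from BCB, a blue copper-binding protein gene, to the floral MADS-box gene PI, and AGO4_Trans3250 bridges that from AT5G20190 to AT5G20200. The 10 together held 1229 *ago4* reads, 24.6% of the members' total, and 7 of them were also among the 10 with the most Col-0 reads. The others of that second 10 were AGO4_Trans1389, over the transcribed pseudogene AT2G24160 (50 reads in *ago4*, 582 in Col-0, 8.59%, 6.30 to 11.5%), and AGO4_Trans3801 and AGO4_Trans3937, described with the non-coding RNA genes.

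**Figure D2:**
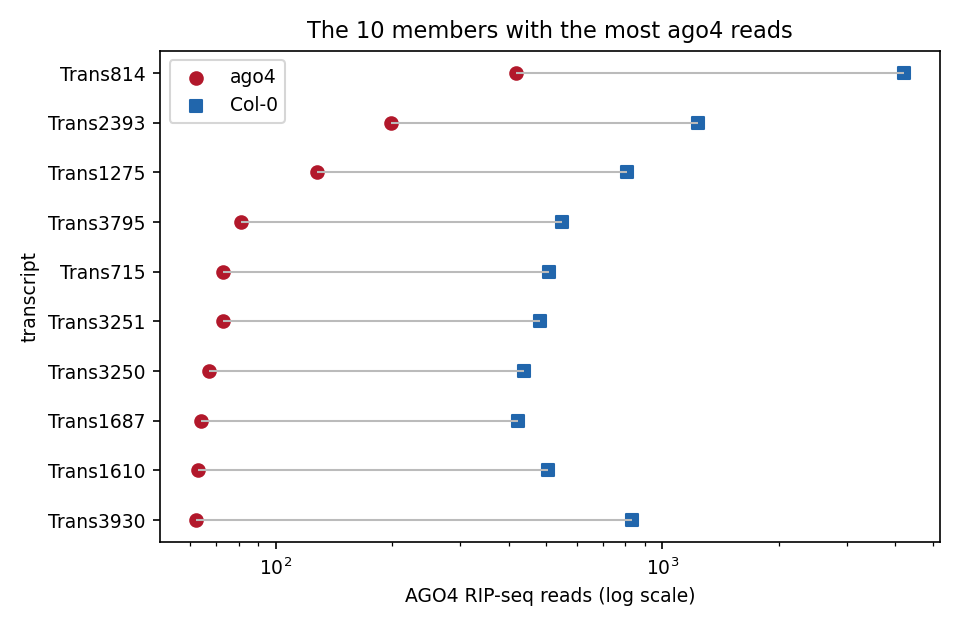
Reads of the 10 members with the most *ago4* reads in *ago4* (circles) and in Col-0 (squares), log scale, 1 library each; transcript numbers are those of the list. AGO4_Trans814 is highest in both genotypes, and the distance between the symbols is widest at AGO4_Trans3930, the member with the lowest ratio of the 10.

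Some members lay in or over genes for small and miscellaneous non-coding RNA, and their reads spread widely. Among all members, 7 overlapped a snoRNA gene, 2 a snRNA gene, 1 a tRNA gene, 3 a miRNA gene, 16 a gene annotated as miscellaneous RNA, 3 another ncRNA gene, 3 an antisense RNA gene and 0 an rRNA gene. As shares these were 0.915% for snoRNA, 0.261% for snRNA, 0.131% for tRNA, 0.392% for miRNA, 2.09% for miscellaneous RNA, 0.392% for other ncRNA and 0.392% for antisense RNA genes, against 0.279, 0.127, 0.178, 0.279, 1.57, 0.457 and 0.0761% of all AGO4-bound transcripts. Apart from AGO4_Trans814, 1 other snoRNA gene was on the member's own strand: AGO4_Trans1543 (3 reads in *ago4*, 49 in Col-0, 6.12%, 1.22 to 19.0%) shares 1 bp with AT2G08860. AGO4_Trans890 and AGO4_Trans34 lie opposite 3 snoRNA genes each, with 15 and 3 reads in *ago4*, against 113 and 21 in Col-0. For AGO4_Trans34 the ratio of 14.3% has an interval of 2.73 to 47.8%. AGO4_Trans2323, AGO4_Trans1673 and AGO4_Trans3233 also lie opposite a snoRNA gene and had 4, 2 and 1 reads in *ago4*, against 26, 37 and 126 in Col-0.

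The snRNA genes, whose RNAs form the core of the spliceosome, were U1.12p in AGO4_Trans2843 (5 reads in *ago4*, 49 in Col-0) and U6.5 in AGO4_Trans2956 (4 and 62), both on the member's strand. AGO4_Trans143 (5 reads in *ago4*, 63 in Col-0) lies opposite the tRNA gene AT1G15450. AGO4_Trans1297 covers MIR5012 on its own strand (5 and 45), while AGO4_Trans1857 and AGO4_Trans3254 lie opposite MIR868 and MIR5635a and had 2 reads each in *ago4*, against 21 and 45 in Col-0. None of these 6 had more than 5 *ago4* reads.

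Among the 10 members with the most Col-0 reads, the lowest ratios were at miscellaneous RNA genes. AGO4_Trans3801, 150 bp long, had 31 reads in *ago4* and 1123 in Col-0, 2.76% (1.87 to 3.94%). AGO4_Trans3937, which runs from the miscellaneous RNA gene AT5G09935 into ARLA1D, a gene for a small GTPase, had 11 and 907, 1.21% (0.603 to 2.18%). AGO4_Trans3671 had 11 and 233, 4.72% (2.32 to 8.60%). Both printed members of this class were heavily duplicated, and kept 12 and 5 deduplicated reads in *ago4*, against 206 and 93 in Col-0. Over all 16 such members the *ago4* reads ran from 1 to 36 (median 7) and the Col-0 reads from 14 to 1123 (median 67), and the ratio from 1.21 to 14.9% (median 6.17%).

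Among members with at least 30 Col-0 reads, 4 of the 5 lowest ratios rested on a single *ago4* read, and the highest lay at the limit of the filter. AGO4_Trans3233 was lowest with 1 read in *ago4* and 126 in Col-0, 0.794% (0.0199 to 4.50%). All of its 2994 bases lie opposite FASS, a gene for a regulator of microtubule arrays. AGO4_Trans3932, which begins 1 bp after HOS15 and ends in the metal transporter gene NRAMP4, had 1 and 116 (0.862%, 0.0216 to 4.90%). AGO4_Trans3927 after the xylan gene IRX15-L had 1 and 80, and AGO4_Trans868 opposite AT1G73470 had 1 and 77. The fifth, AGO4_Trans3937, rested on 11 *ago4* reads and is given above. At the other end, AGO4_Trans2661 after the glutathione peroxidase gene GPX6 had 16 reads in *ago4* and 97 in Col-0, 16.5% (9.07 to 28.2%). AGO4_Trans2892, AGO4_Trans3275, AGO4_Trans245 and AGO4_Trans2331 had 10, 38, 28 and 9 reads in *ago4*, against 61, 232, 171 and 55 in Col-0, and each had a ratio of 16.4%.

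To ask where these RNAs lie, each member was placed against the genes of the TAIR10.1 annotation. Of the 765 members, 701 (91.6%) overlapped a gene by 1 bp or more, against 816 of the 1067 arm transcripts without an *ago4* read (76.5%), 178 of the 263 pericentromeric transcripts outside Pol V (67.7%), 474 of the 1150 single-strand transcripts on Pol V transcripts (41.2%) and 62.9% of all 3940. Protein-coding genes accounted for most of it, with 669 members (87.5%), against 71.7% of arm transcripts without an *ago4* read and 50.9% of all. Long non-coding RNA genes were overlapped by 71 members (9.28%), transcribed pseudogenes by 19 (2.48%) and other pseudogenes by 7 (0.915%). The shares were 4.40, 1.03 and 1.31% in arm transcripts without an *ago4* read and 6.14, 2.26 and 6.57% over all AGO4-bound transcripts. Other pseudogenes were overlapped by 112 of the 1150 transcripts on Pol V transcripts (9.74%). Transcripts that contained a TAIR10 gene had been removed by the authors. Still, 93 members (12.2%) held a whole gene of the annotation used here, against 5.71% of all AGO4-bound transcripts.

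The overlap took 2 forms. On the member's own strand it was short: 423 members shared a median of 124 bp with a protein-coding gene (quartiles 54.5 and 275 bp), and for 277 of them (65.5%) it was 200 bp or less. On the other strand it was long: 413 members (54.0%) ran opposite a protein-coding gene, for a median of 918 bp (quartiles 580 and 1405 bp, at most 5573 bp), and for 369 members it took up at least 50% of the transcript. The share opposite a protein-coding gene was 37.4% in arm transcripts without an *ago4* read, 28.9% in pericentromeric ones and 17.4% on Pol V transcripts. The authors called transcripts from reads outside TAIR10 genes and removed those containing a gene, so overlap with genes was restricted in advance. The part of that calling in the 2 forms was not tested.

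The 5′ end of most members lay within 200 bp of the 3′ end of a gene on the same strand, before or after it. This held for 535 members (69.9%), while 312 (40.8%) lay within 50 bp and 116 (15.2%) within 10 bp. Of all members, 278 (36.3%) began 0 to 200 bp after the gene's end. Before it, 257 (33.6%) began by 1 to 200 bp and 109 (14.2%) by more, up to 1000 bp. The bin from 0 to 49 bp after the gene's end alone held 220 members (28.8%). The share within 200 bp was 56.2% in arm transcripts without an *ago4* read, 40.3% in pericentromeric transcripts outside Pol V, 15.9% on Pol V transcripts and 38.6% over all AGO4-bound transcripts. The authors called transcripts from reads outside TAIR10 genes, whose ends can differ from those of the annotation used here, so distances of a few bp depend on the annotation. The part of that calling step in the position of the 5′ ends was not tested. The reverse position, a member's 3′ end within 200 bp of the start of a gene on its strand, was found for 171 members (22.4%), and the 5′ end lay within 200 bp of the start of a gene on the other strand, as in a divergent promoter, for 26 (3.40%). These shares were 20.4 and 4.40% in arm transcripts without an *ago4* read, 16.3 and 8.40% over all AGO4-bound transcripts, and 10.6 and 14.0% on Pol V transcripts.

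**Figure D3:**
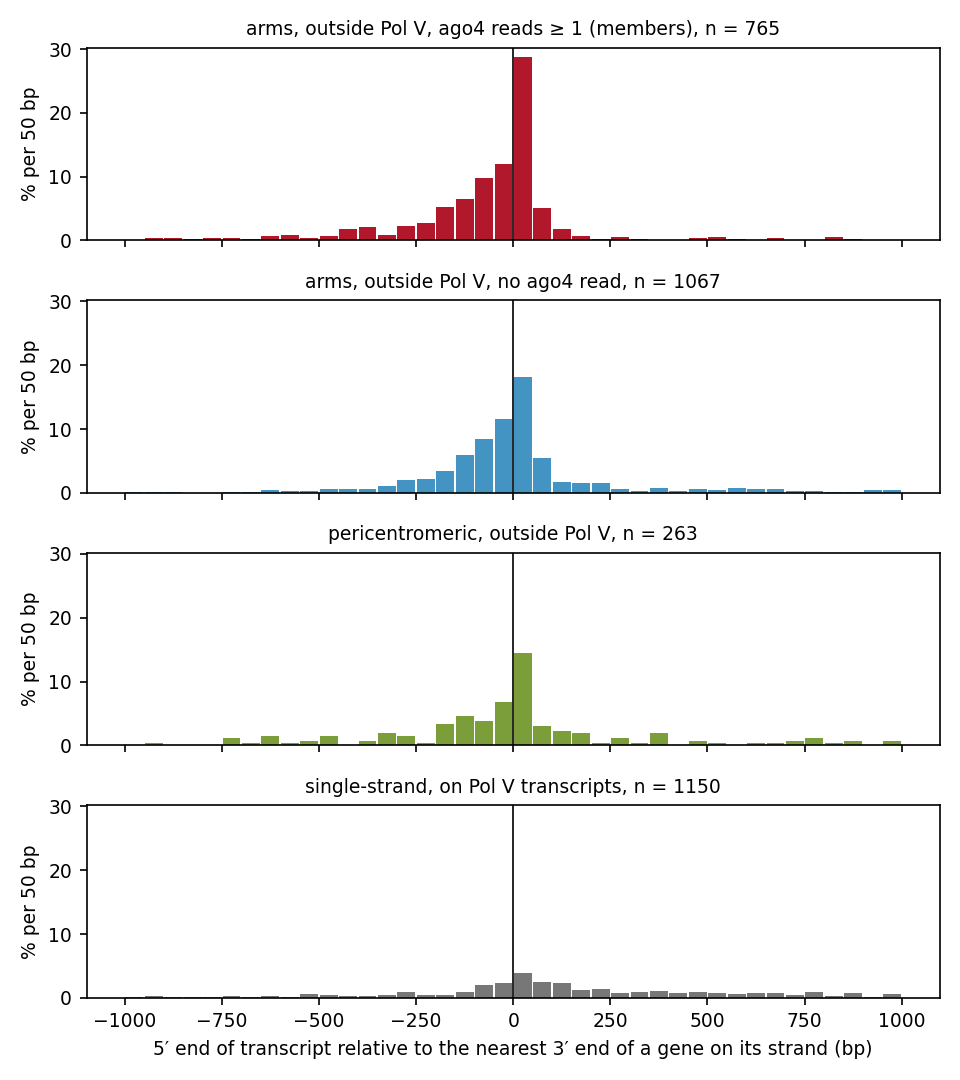
Distance from the nearest 3′ end of a gene on the same strand to the 5′ end of the AGO4-bound transcript, in bins of 50 bp, as a percent of each set, with positive distances after the gene's end; transcripts farther than 1000 bp are counted in n but not drawn. Members peak at 0 to 49 bp with 28.8%, and the same bin is the highest in the arm transcripts without an *ago4* read (18.2%), the pericentromeric transcripts (14.4%) and those on Pol V transcripts (3.83%).

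The 535 members at gene ends belonged to 535 different genes, of which 523 were protein-coding. They reached a median of 825 bp past the gene's end (quartiles 555 and 1268 bp), and the farthest reached 5849 bp. The next protein-coding gene downstream pointed towards the member's gene, in convergent orientation, for 321 of the 523 (61.4%), against 48% of all 24047 protein-coding genes of the arms. In these convergent pairs the 3′ ends overlapped by a median of 12 bp, with the median distance at -12 bp, and over all arm genes with a convergent neighbour it was 56 bp. Where the next gene pointed the same way, the median distance was 895.5 bp for genes with a member and 692 bp for all arm genes. The convergent share was 48.7% for genes of arm transcripts without an *ago4* read, 58.8% (57 of 97) for those of pericentromeric transcripts outside Pol V and 46.7% for those of transcripts on Pol V transcripts. Members had a median of 34 Col-0 reads and 851 bp, against 13 reads and 437 bp without an *ago4* read. Calling used only reads outside TAIR10 genes. The convergent share was not compared within classes of Col-0 reads, and the part of depth or calling in it was not tested. Of the 535 members, 286 ran opposite a protein-coding gene and 125 ended within 200 bp of the start of the next gene on their own strand.

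Members at gene ends and the other 230 had similar reads. At gene ends the median was 3 reads in *ago4* and 36 in Col-0, elsewhere 2 and 31. The pooled ratio was 9.47% (9.12 to 9.82%) at gene ends and 10.4% (9.86 to 10.9%) elsewhere. The members elsewhere include AGO4_Trans814 and AGO4_Trans2393, which had the most *ago4* reads. The median ratio was 8.70% at gene ends and 8.76% elsewhere. The median lengths were 849 and 865 bp. Of those not at a gene end, 127 ran opposite a protein-coding gene, which left 103 members (13.5%) with neither feature, among them AGO4_Trans2393 over its pseudogenes. The 64 members that overlapped no gene at all were short of reads, with a median of 2 in *ago4* and 25 in Col-0 and at most 14 in *ago4*, and 52 of them still began within 200 bp of a gene's end. The shortest member, AGO4_Trans941 (94 bp, 2 reads in *ago4* and 16 in Col-0, 12.5%, 1.39 to 53.2%), lay 381 bp after the phosphoglycerate kinase gene PGK and overlapped no gene.

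The members were long and deeply read beside the other sets. High Col-0 reads are partly built in by the selection, because under the filter each *ago4* read required at least 6 Col-0 reads. Length rose with depth, from a median of 527.5 bp in members with up to 15 Col-0 reads to 1431.5 bp with over 60. The authors' calling joined reads up to 200 bp apart and required at least 1 read per 100 bp. Length was thus tied to the number of reads in advance, and the part of that calling in the lengths was not tested. The median length of all members was 851 bp (94 to 6550 bp), against 437 bp without an *ago4* read, 487 bp in pericentromeric transcripts and 473.5 bp on Pol V transcripts. Over 1 kb were 292 members (38.2%), against 44 (4.12%) of those without an *ago4* read. The longest, AGO4_Trans1497 (chr2:13532584-13539134, plus strand, 50 reads in *ago4* and 371 in Col-0), begins in the ankyrin repeat gene AT2G31820 and runs opposite 5PTase14 and MRL7-L. Col-0 reads per 100 bp had a median of 3.99 in members and 2.92 without an *ago4* read. The median GC content was 36.8% in members and 34.9, 35.3 and 34.8% in the other 3 sets.

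Members had more Col-0 reads than the other sets, with medians of 34 against 13, 14 and 14.5, so the sets were also compared within classes of Col-0 reads. In the arms outside Pol V, an *ago4* read was present for 9.49% of transcripts with up to 15 Col-0 reads, 45.6% with 16 to 30, 83.9% with 31 to 60 and 98.9% with over 60. The pericentromeric transcripts had 3.45, 49.3, 85.7 and 95.8% in the same classes, and those on Pol V transcripts 3.11, 12.4, 38.5 and 69.6%. Under the 6-fold filter, transcripts with few Col-0 reads could hold few or no *ago4* reads, so part of this rise is built in. Among transcripts with over 60 Col-0 reads, *ago4* reads amounted to 10.3% of Col-0 reads in the arms outside Pol V, 3.60% in pericentromeric transcripts outside Pol V, where a single transcript had 4633 Col-0 reads, and 6.80% on Pol V transcripts.

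Within these classes members and arm transcripts without an *ago4* read came closer in length and, at higher depth, in the share at gene ends. With 31 to 60 Col-0 reads, the median length was 977 bp in 245 members and 932 bp in the 47 others, and the share at gene ends was 73.1% and 74.5%. With 16 to 30 reads the share was 68.7% and 63.8%, and with up to 15 it was 63.5% and 51.7%. Only 2 transcripts with over 60 Col-0 reads lacked an *ago4* read. The share opposite a protein-coding gene was 54.0 and 37.4% over all depths. It came closer with 16 to 30 and 31 to 60 reads but stayed higher in members. Without an *ago4* read, the value with 31 to 60 reads rested on 21 of 47 transcripts. Gene overlap and GC content came closest with 16 to 30 reads. The share opposite a protein-coding gene was 51.4, 51.5 and 53.5% of members in the 3 lower classes, against 34.4, 42.9 and 44.7% without an *ago4* read. The share overlapping any gene was 83.8, 88.5 and 93.9%, against 72.1, 84.9 and 85.1%, and the median GC content was 37.2, 36.1 and 37.1%, against 34.6, 35.6 and 34.4%. On Pol V transcripts the share at gene ends was 12.6, 15.5, 32.3 and 47.8% in the 4 classes, below the members in each.

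**Figure D4:**
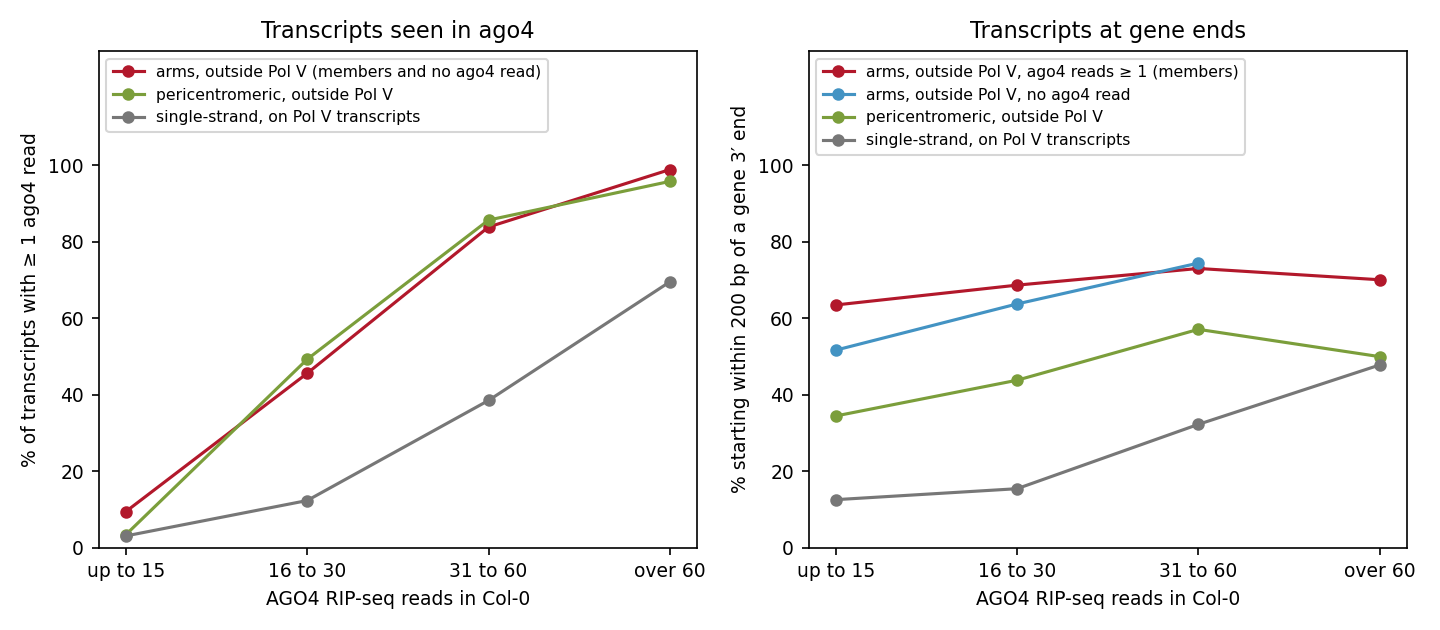
Left, percent of AGO4-bound transcripts with at least 1 *ago4* read, and right, percent that start within 200 bp of the 3′ end of a gene on their strand, by classes of Col-0 reads; a class with only 2 transcripts is not drawn. On the left, transcripts outside Pol V on arms (98.9% at over 60 reads) and in pericentromeric intervals (95.8%) run close together from 16 to 30 reads on, above those on Pol V transcripts (69.6%), and on the right members and arm transcripts without an *ago4* read meet at 31 to 60 reads (73.1 and 74.5%).

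The members can also be described by classes of *ago4* reads, the value they were selected on. These classes follow the Col-0 reads, with medians of 20.5, 27, 52 and 143, so their differences cannot be told apart from those of depth. With 1 *ago4* read the median length was 688 bp, with 2 or 3 it was 725.5 bp, with 4 to 9 it was 1035 bp and with 10 or more it was 1662 bp. The share at gene ends was 66.0, 69.2, 72.9 and 74.0%, and the share opposite a protein-coding gene 53.5, 53, 51.7 and 62.5%.

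The members were spread over all chromosome arms and both strands. There were 192 on chromosome 1, 107 on chromosome 2, 149 on chromosome 3, 114 on chromosome 4 and 203 on chromosome 5, or 7.99 to 9.96 per Mb of arm, and 398 lay on the plus and 367 on the minus strand. The pooled ratio of *ago4* to Col-0 reads was between 8.71% on chromosome 5 and 10.8% on chromosome 3. The nearest Pol V transcript was a median of 21705 bp away, against 17961 bp for arm transcripts without an *ago4* read and 4494 bp for pericentromeric transcripts outside Pol V, and 6 members had one within 500 bp.

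The genes near members were counted for 4 lists. A member lay within 1 kb of 1 of 41 genes of DNA methylation and demethylation (2.44%), a list that includes the RNA-directed pathway. The counts were 7 of 71 for photosynthesis genes (9.86%), 24 of 386 for ribosomal protein genes (6.22%) and 10 of 110 for histone genes (9.09%). Over all protein-coding genes the share was 5.36%. For arm transcripts without an *ago4* read, the shares of the 4 lists were 9.76, 5.63, 5.96 and 8.18% in the same order. Over all protein-coding genes it was 6.33% in that set. The gene of the first list near a member was KTF1, which encodes a partner of AGO4 that binds Pol V transcripts. AGO4_Trans3078 runs opposite it for 1090 bp and had 1 read in *ago4* and 30 in Col-0, 3.33% (0.0817 to 20.1%).

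Short sequence motifs were searched in the first 300 bases from each transcript's 5′ end, on both strands. The polyadenylation signal AATAAA was present for 328 members (42.9%), against 48.2% of arm transcripts without an *ago4* read, 57.0% of those on Pol V transcripts and 50.9% of all AGO4-bound transcripts. The TATA box TATAAA was present for 33.2% of members, 35.6% of arm transcripts without an *ago4* read and 37.4% of all, and box C of snoRNAs, TGATGA, for 28.9, 30.1 and 25.3%. The core of the Pol III B box, GTTCGANNC, was found for 12 members (1.57%), AGO4_Trans3801 among them, 2.16% without an *ago4* read and 2.34% of all. The telo box AAACCCTA was found for 24 members (3.14%), 2.72% and 3.73%, and the core of the upstream element of plant snRNA genes, CCCACATCG, for 0 members, 0.281% and 0.178%. AATAAA and TATAAA share letters and can overlap. A match here is a description of letters and not a site.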

How the data were processed

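With SOAPsplice the authors aligned paired 50 bp reads to TAIR10. They built transcripts from unique reads outside genes and kept AGO4-bound transcripts with at least 4 Col-0 reads, 1 read per 100 bp and a 6-fold excess over *ago4*, without a test. The deposited counts are raw reads per transcript and library, with and without duplicates; how duplicates were removed is not given in the sources used here. No per-library column (0) went unused. The p-value and q-value columns of the Pol V list come from the authors' own test and were not used.

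Coordinates and lengths (end minus start) were used as deposited. Genes and sequence were those of TAIR10.1, with the same nuclear chromosomes, but its gene ends can differ from the TAIR10 ends used in calling. Overlap meant 1 bp. The overlap, distance and interval code was tested on simulated data. Python 3.11.15, numpy 2.4.6, pandas 2.3.3, scipy 1.17.1 and matplotlib 3.10.9 were used.

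Members, gene lists, motifs and comparisons were chosen with earlier results of these data known. Named transcripts were the 10 members with the most *ago4* reads, the 10 with the most Col-0 reads, the longest and the shortest. Also named were the 5 highest and 5 lowest ratios at 30 or more Col-0 reads. So were members within 1 kb of a gene of the list of DNA methylation and demethylation. Of members over small non-coding RNA genes, all at snoRNA, snRNA, tRNA or miRNA genes were named, but only some of the others. Transcripts at the limits of the rule were named after their values were seen. Of the methylation list, CLSY2, CLSY3 and CLSY4 were not matched.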

Additional observations from a re-analysis of the deposited data

How the results depend on the processing

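No paired analysis was possible because the AGO4 RIP-seq had 1 library per genotype and no test was run; the numbered repeats belong to the Pol V RIP-seq. Of 64 alternatives, 47 stayed within the counting or order-statistic interval of the reported value, or within 1.5 times for the number of members, and 17 moved. Requiring more than 3 *ago4* reads left 299 members, with a median ratio of 11.3%, a median length of 1210 bp, 95% overlapping a gene and 73.2% at gene ends. Requiring at least 2 gave a median ratio of 10.3% and a median length of 946 bp. Deduplicated reads gave a median ratio of 10% and a pooled ratio of 10.7%. With at least 30 Col-0 reads the median ratio was 9.32%, the share overlapping a gene 94.6% and the duplicate share of Col-0 reads 52.7%. Counting an overlap only from 50% of the transcript left 66.1% over a gene and 48.2% opposite a protein-coding gene. The share at gene ends was 40.8% with a window of 50 bp and 81.8% with 500 bp. A start up to 1 kb after a gene's end was found for 40.7%, and up to 2 kb for 50.3%. Moving the pericentromeric limits by 0.5 Mb or keeping 500 bp from Pol V transcripts gave 729 to 790 members. The windows at gene ends, the overlap opposite genes and the pooled ratio without the member with the most reads were chosen after seeing the data. With few *ago4* reads per member, the ratio of most single members is uncertain by several fold, and the full depth of the libraries is unknown.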
